A study of Mus musculus with 18 samples.

Results

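Brunner's glands of GLP-1R-/- mice were compared 18 h and 6 h after exendin-4, to show which transcripts differed between the collection times in mice that lack the receptor. The comparison rests on 6 of the 18 arrays in the series, chosen by their titles: 3 knockout arrays at 18 h (numbers 16, 17 and 18) and 3 at 6 h (numbers 13, 14 and 15). Each array held RNA of laser-captured glands from 1 male CD-1 mouse with the genotype given as GLP1-R -/-, and all 6 mice had received exendin-4. The groups set beside them were untreated knockouts (3 arrays) and CD-1 wild-type mice untreated, at 6 h and at 18 h after exendin-4 (3 arrays each). The labels give no dose, age, vehicle group or time of day. Time after the dose therefore cannot be told apart from time of day or feeding state.

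Brunner's glands lie in the submucosa of the duodenum and release mucus and bicarbonate that shield the lining from gastric acid. The GLP-1 receptor is a receptor of the Gs-coupled kind that raises cyclic AMP when it binds glucagon-like peptide 1, and exendin-4 is a peptide agonist of it. In wild-type glands an 18 h against 6 h difference can combine the course of that signal with whatever else differs between the collections, while in knockouts the receptor's part is removed.

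Signals are RMA values on the log2 scale, where a difference of 1 is a 2-fold change. The table names its 17204 genes by Ensembl identifier, and neither it nor the gene tables used here pair these with symbols. No gene name, function, position or promoter sequence is therefore given, and the glands and the knockout were not checked against marker genes or the receptor transcript. For bulk tissue, fewer cells of a kind and less RNA per cell cannot be told apart. Of the 17204 genes, 12775 were bright enough to be tested.

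Number 13, a 6 h knockout, stood apart before any comparison. Its interquartile range across genes was 2.63, against 2.95 to 3.19 in the other 17 arrays, and its correlation with them across genes lay between 0.945 and 0.966, while the others correlated with each other between 0.970 and 0.995. The median SD of a tested gene among the 3 knockout 6 h arrays was 0.281, but 0.0953 between numbers 14 and 15 alone. It was 0.124 among the 3 knockout 18 h arrays. In number 13, dim genes read high and bright genes read low: against untreated knockouts its median difference was 0.39 for the dimmest 20% of tested genes and -0.37 for the brightest 20%. In numbers 14 and 15 the same medians were 0.02 and -0.04 for the dimmest genes, and 0.04 and 0.06 for the brightest. In the 3 arrays at 18 h they lay between 0.06 and 0.09 for the dimmest genes and between -0.03 and 0.03 for the brightest. Most results that use the 6 h group are accordingly given with and without number 13. Counts of genes whose groups do not overlap are given with it only. With each array scaled to 1 interquartile range, or quantile normalized, and number 13 kept, the knockout comparison below still called 0 genes.

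**Figure D1:**
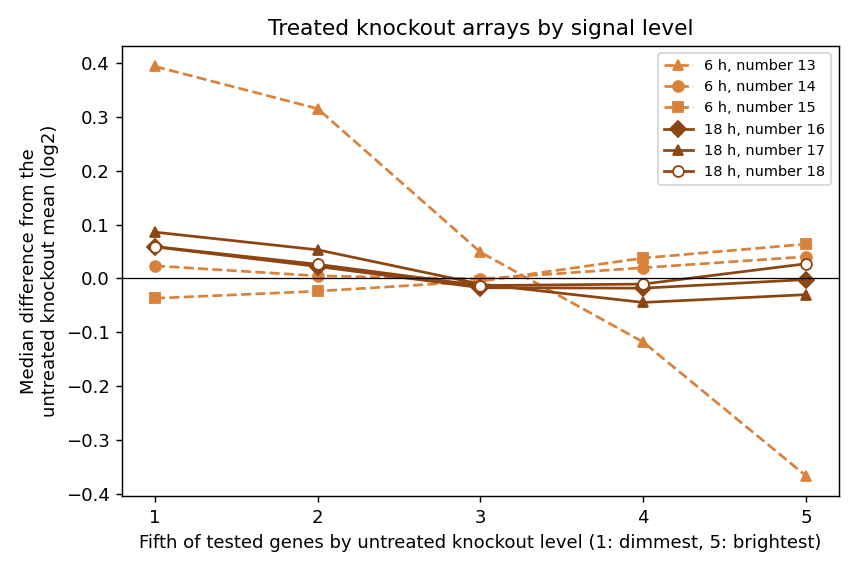
Median difference of each treated knockout array from the untreated knockout mean (y axis, log2) in 5 equal groups of the tested genes ranked by their untreated knockout level (x axis, 1 the dimmest and 5 the brightest). Number 13 runs from 0.39 to -0.37, while the other 5 arrays stay between -0.04 and 0.09.

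No gene passed in the knockouts. Limma called 0 of 12775 genes (0%) at an adjusted p under 0.05, with a smallest adjusted p of 0.176, and 1141 genes (8.93%) had an unadjusted p under 0.05. These p-values use a spread shared by 6 groups, of which the knockout 6 h group varied most. With only the compared groups in the limma fit, 587 genes had an unadjusted p under 0.05, and the smallest adjusted p was 0.788. In wild-type mice the fit of all 18 arrays, with the same spread for each gene, called 1389 genes (10.9%). At 18 h 616 of them were higher (4.82%) and 773 lower (6.05%). Centring each array on its median gave 474 and 939. The knockout differences were also smaller: 90% of them lay between -0.40 and 0.42, against -0.66 and 0.57 in wild-type mice. At least a 2-fold difference was seen for 42 genes in knockouts and for 351 in wild-type mice. The 95% interval of a gene's difference reached a median of 0.36 to either side, or 1.28-fold, and was narrower or wider for single genes.

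Leaving number 13 out changed little in this count. Limma then called 1 gene (0.00787% of 12706), which was lower at 18 h, and 90% of the differences lay between -0.37 and 0.34. Without number 14 another single gene was called, also lower at 18 h, and without number 15, 16, 17 or 18 none was. At least a 2-fold difference was seen for 47 genes without number 13, of which 23 were among the 42. The wild-type count was 2415 without number 13, 843 without number 10, 870 without number 7 and 808 without number 9. With number 13 and 1 wild-type 6 h array both left out, so that each genotype had 2 arrays at 6 h and 3 at 18 h, limma called 1598 (12.6%), 1663 (13.1%) or 2114 (16.7%) wild-type genes. With limma's array weights, which gave number 13 a weight of 0.0840 and the other arrays 0.483 to 2.84, the knockout count was 455 genes (3.56%), 214 higher and 241 lower at 18 h, and the wild-type count was 3423. The count of 0 was thus obtained with arrays of equal weight.

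The gene with the smallest knockout p was ENSMUSG00000020034. Its signal at 6 h was 6.98, 7.52 and 7.30 in numbers 13, 14 and 15, and at 18 h 9.02, 8.64 and 8.43 in numbers 16, 17 and 18. All 3 arrays at 18 h lay above all 3 at 6 h, and the untreated knockouts, at 8.25, 9.03 and 8.41, lay with the 18 h arrays. The means were 7.27 ± 0.274 and 8.70 ± 0.296 (SD, n = 3 each), a difference of 1.43 or 2.70-fold (SE 0.24, limma adjusted p = 0.176). Over 14 alternatives its adjusted p ranged from 0.00600 to 0.788. It was 1.29 without number 13 (limma adjusted p = 0.147), and it passed with array weights. Wild-type mice had the same order of groups: 8.45, 8.06 and 8.48 untreated, 6.45, 7.05 and 6.28 at 6 h, and 9.29, 8.79 and 8.85 at 18 h. The gene was called there, with a difference of 2.38 (SE 0.24, limma adjusted p = 1.63e-05). The genotypes differed by 0.95 in this change (95% interval 0.23 to 1.67, limma adjusted p = 0.193).

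ENSMUSG00000066037 had the largest positive difference of the consistent genes defined below, from 8.02, 6.59 and 9.23 at 6 h to 10.05, 9.46 and 9.52 at 18 h. The 18 h arrays were close together, while the 6 h arrays spread over more than 2 log2 units and the highest of them, number 15, lay just below the lowest 18 h array. The difference was 1.73 or 3.31-fold (SE 0.603, limma adjusted p = 0.479), and 1.77 without number 13, 1.05 without number 14 and 2.37 without number 15. In untreated knockouts the gene was at 9.92, 9.34 and 9.51, again level with 18 h. In wild-type mice it varied within every group, from 6.96 to 9.36 over the 9 arrays, and the 18 h minus 6 h difference was -0.56 (SE 0.603, limma adjusted p = 0.631).

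ENSMUSG00000059824 had the largest negative difference. It was at 10.62, 8.89 and 8.74 at 6 h in numbers 13, 14 and 15, and at 6.66, 7.88 and 7.56 at 18 h. Number 13 was the highest of the 6 arrays, yet numbers 14 and 15 also lay above every 18 h array. The difference was -2.05, 4.13-fold lower (SE 0.592, limma adjusted p = 0.4), and -1.45 without number 13. Untreated knockouts, at 8.74, 9.21 and 9.58, lay here with the 6 h arrays. In wild-type mice the difference was -1.33 (SE 0.592, limma adjusted p = 0.182), with 18 h arrays at 7.42, 6.54 and 7.19 all below the 6 h arrays at 8.58, 9.04 and 7.53.

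The gene called without number 13 was ENSMUSG00000020427. It was at 8.02 and 8.28 in numbers 14 and 15 and at 6.97, 7.16 and 7.23 at 18 h, a difference of -1.04 or 2.05-fold lower (SE 0.141, limma adjusted p = 0.023). Number 13 read 7.35, nearer to the 18 h arrays than to the other 6 h arrays, and with it the difference was -0.77 (SE 0.186, limma adjusted p = 0.354). Untreated knockouts lay between the times, at 7.74, 7.66 and 7.60. Wild-type mice were at 7.98, 8.21 and 8.22 at 6 h and at 7.47, 7.85 and 7.70 at 18 h, without overlap, and the difference of -0.46 did not pass (SE 0.186, limma adjusted p = 0.133). Unlike untreated knockouts, untreated wild-type mice, at 7.10, 7.44 and 7.30, lay below the arrays of both times. For neither this gene nor the 2 before it did the genotypes differ past the threshold in the change between the times (limma adjusted p = 0.606, 0.708 and 0.215 for ENSMUSG00000020427, ENSMUSG00000059824 and ENSMUSG00000066037).

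**Figure D2:**
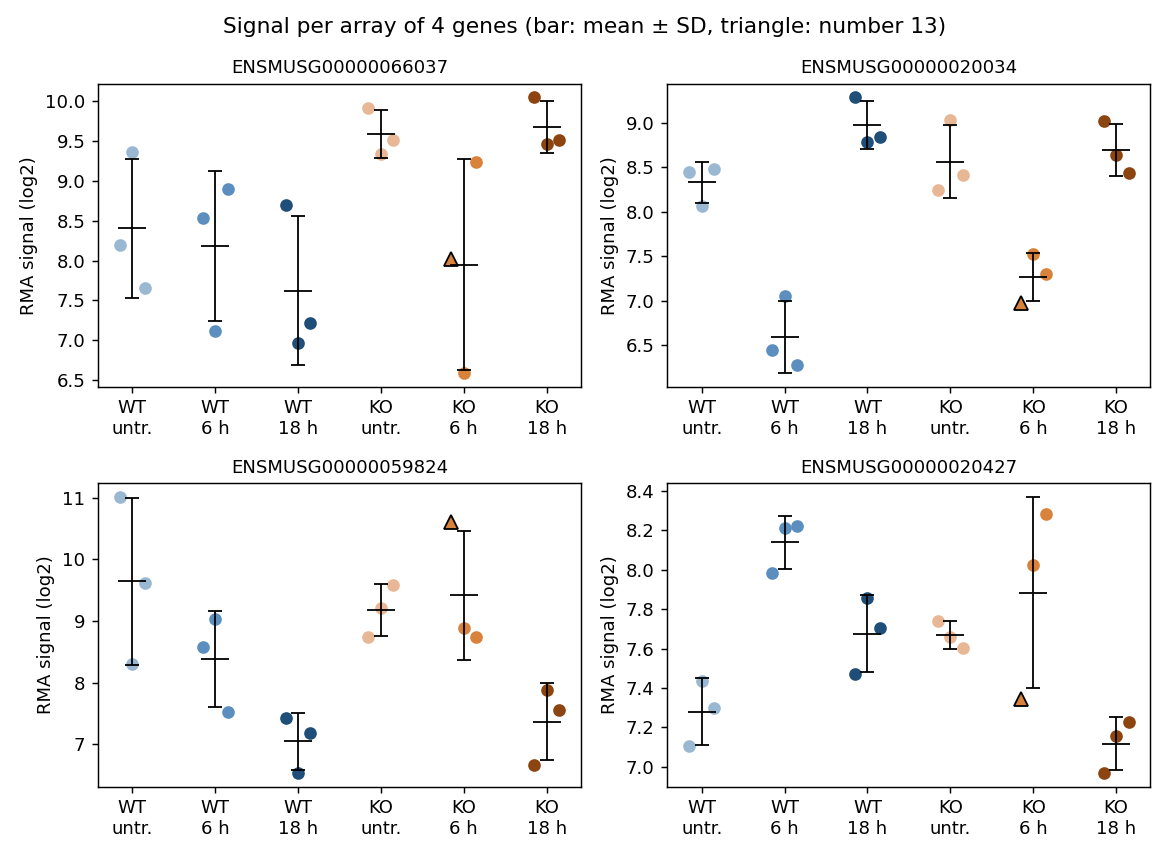
RMA signal (y axis, log2) of 4 genes in each of the 18 arrays, by genotype and time (x axis, WT wild-type, KO knockout, untr. untreated); bars give the mean ± SD of 3 arrays and the triangle marks number 13. In ENSMUSG00000020034 the 6 h arrays of both genotypes lie below every untreated and 18 h array.

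A wider group was formed of genes whose knockout arrays at 18 h did not overlap those at 6 h. An unadjusted p under 0.05 was also required. The same sign without number 13 was a further condition, but it follows from the lack of overlap and so removed no gene. The p-values were those of the limma fit of all 18 arrays. In all, 1696 genes (13.3%) did not overlap, and 846 (6.62%) met all the conditions and are called consistent genes here. Of these, 335 were higher and 511 lower at 18 h, but 377 and 422 met them after median centring of each array, and 538 and 453 with each array also scaled to 1 interquartile range, so that the balance of directions followed the scaling. Their differences had a median size of 0.45 and ran from 0.22 to 2.05, values that the conditions helped to set. With number 13 out of the 6 h mean the median size was 0.32. The 12 largest positive differences were between 1.10 and 1.73 and the 12 largest negative ones between 0.91 and 2.05 in size, with limma adjusted p between 0.176 and 0.551. In 17 of these 24 genes number 13 was the 6 h array farthest from the 18 h arrays, and in 4 of them the difference without it was less than 50% of that with it. Without number 13 the sizes of the 24 ran from 0.24 to 1.77.

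The wild-type differences took no part in choosing the consistent genes, although the wild-type arrays entered the filter and each gene's spread, on which both the choice and the wild-type calls draw. In wild-type mice 587 of the 846 (69.4%) had the knockout direction, against 52.4% of all tested genes, or 63.1% where the direction of all genes was taken without number 13. Limma called 206 of them there (24.3%, against 10.9% of all): 192 in the knockout direction and 14 in the opposite one. Of those higher at 18 h in knockouts, 80 of 335 were called higher in wild-type mice, and of those lower 112 of 511 were called lower. The median wild-type difference, turned to the knockout direction, was 0.19, against 0.02 over all tested genes, or 0.09 where their direction was taken without number 13.

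The levels of untreated knockouts took no part in the choice either, beyond the filter and each gene's spread. Their mean lay nearer to the 18 h than to the 6 h mean for 492 of the 846 consistent genes (58.2%) and for 59.8% of all tested genes. With number 13 left out of the 6 h mean these shares were 43.0% and 48.8%. Which of the treated groups lay farther from untreated mice thus turned on that 1 array.

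The 1389 genes called in wild-type mice were then followed in the knockouts, whose arrays took no part in that choice, although both genotypes share the model's estimate of the spread. In knockouts 974 of them (70.1%) differed in the wild-type direction, against 52.4% of all tested genes. Without number 13 the shares were 76.1% and 63.1%, and with quantile normalization as well 75.0% and 60.8%. The differences also shifted slightly by signal level: without number 13 the median knockout difference was 0.08 for the dimmest 20% of tested genes and -0.05 for the brightest. With number 13 these medians were -0.06 and 0.08, and in wild-type mice they were 0.09 and -0.07. Whether this shift bears on the shares was not tested. Knockout arrays at 18 h and 6 h did not overlap for 306 of the 1389 genes (22.0%) in the wild-type direction and for 43 (3.10%) in the opposite one, where all tested genes had 8.76% and 4.52%. The median difference in the wild-type direction was 0.12 in knockouts, or 0.14 without number 13, and 0.72 in the wild-type arrays that selected the genes, which inflates the last value. For all tested genes the knockout medians were 0.01 and 0.06. None of the 1389 was called in knockouts by limma. An unadjusted limma p under 0.05 was seen for 229 in the wild-type direction and 23 in the opposite one. Of all 12775 tested genes, 764 and 377 had such a p.

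Among the 319 of these genes that differed at least 2-fold in wild-type mice, 227 (71.2%) had the same direction in knockouts. The median knockout difference in the wild-type direction was 0.16. Without number 13 the share was 79.6% and the median 0.21. At least a 2-fold difference in both genotypes was seen for 5 genes in the same direction and 1 in opposite directions, and without number 13 for 10 and 5.

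**Figure D3:**
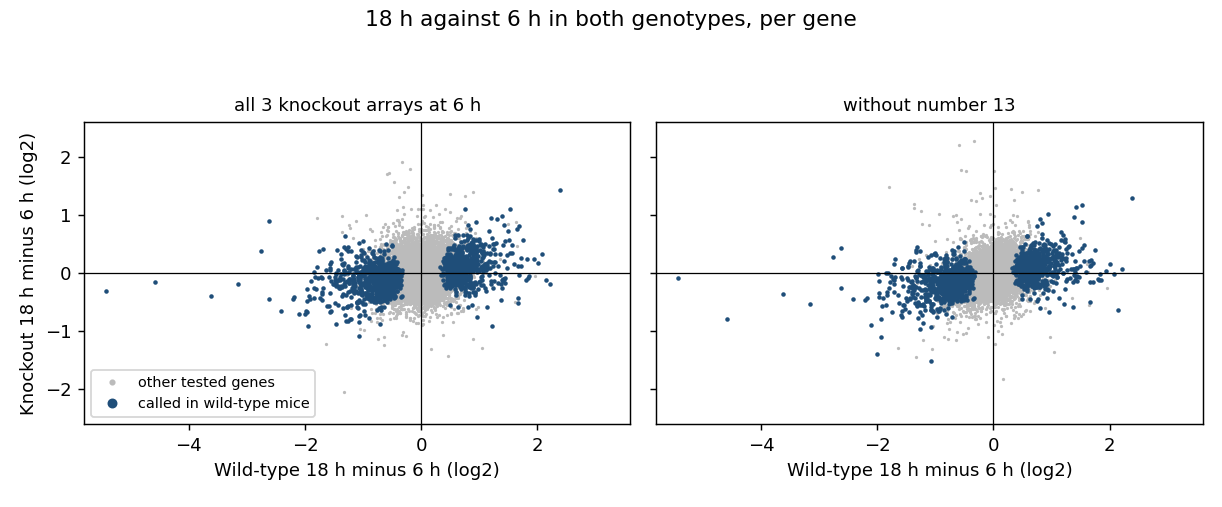
Difference between 18 h and 6 h per gene in wild-type mice (x axis, log2) and in knockouts (y axis, log2), with all knockout arrays (left) and without number 13 (right); dark points are the 1389 genes called in wild-type mice, grey points the other tested genes. The dark points spread from -5.43 to 2.38 in wild-type mice, and most lie within 1 unit of 0 in knockouts.

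The wild-type lists had small shifts in single knockout arrays, opposite between the lists except in number 13. For the 616 genes higher at 18 h in wild-type mice, the median difference from untreated knockouts was -0.02, -0.04 and -0.05 in numbers 13, 14 and 15 and 0.10, 0.05 and 0.05 in numbers 16, 17 and 18. The times did not overlap, and the untreated arrays, from -0.02 to 0.03, lay above numbers 14 and 15 and below every 18 h array. The untreated arrays are held near 0 because their own mean is the reference, so their spread cannot be compared with that of treated arrays. For the 773 genes lower at 18 h the medians were -0.04, 0.09 and 0.10 at 6 h, and -0.09, -0.09 and -0.06 at 18 h. Number 13 lay here on the side of the 18 h arrays, unlike numbers 14 and 15. Over all tested genes the medians were 0.12 in number 13 and 0.01 to 0.02 in the other treated knockouts.

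**Figure D4:**
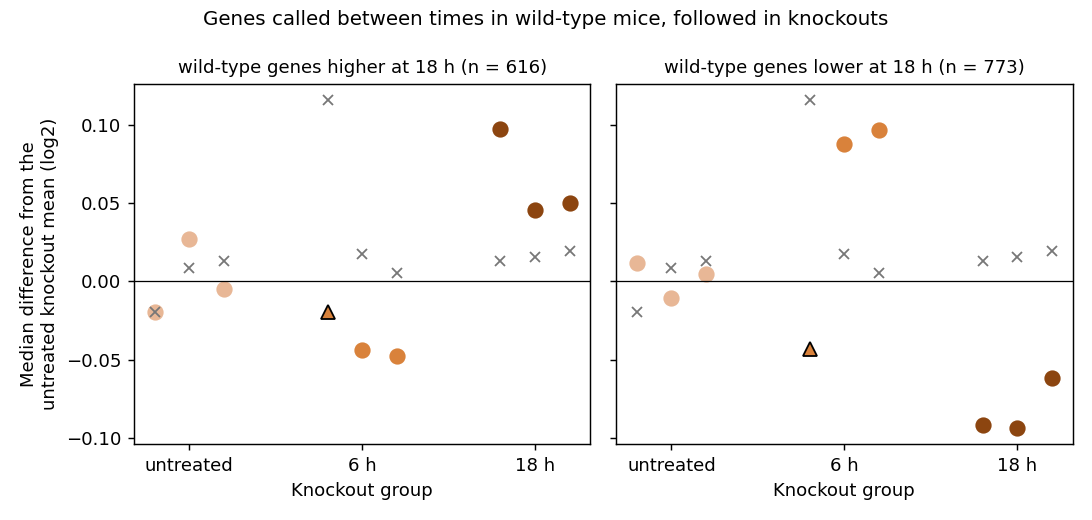
Median difference from the untreated knockout mean (y axis, log2) in each knockout array (points, by group on the x axis; triangle, number 13) for the 616 and 773 genes called between the times in wild-type mice; grey crosses give the median over all tested genes in the same array. The 616 genes lie between -0.05 and -0.02 at 6 h and between 0.05 and 0.10 at 18 h.

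The difference between the genotypes was tested directly as the wild-type minus the knockout change. Limma called 197 genes (1.54%), for 84 of which the wild-type change was the more positive and for 113 the more negative, or 53 and 125 after median centring. Without number 13 the count was 284, split 144 and 140, and with array weights it was 1512, split 745 and 767. The wild-type change was the larger in size for 192 of the 197, and 193 of them belonged to the 1389 wild-type calls, which this contrast draws on. Their median size was 1.09 in wild-type mice and 0.17 in knockouts, 0.14 without number 13. Choosing the genes by the difference between these changes helped to set both sizes. The signs were opposite for 123 of the 197, and for 99 without number 13, which that choice also favours. Over all tested genes 52.4% had the same sign in both genotypes, or 63.1% without number 13. An unadjusted limma p under 0.05 in knockouts was seen for 36 of the 197, and for 1141 of all 12775 (8.93%). For most of the 197 the knockout sign is therefore uncertain. The count of 197 was 124 without number 10, 99 without number 11, 112 without number 7, 98 without number 9, 96 without number 16, 92 without number 17 and 87 without number 18. Of the 1389 wild-type calls, 1196 were not called in this contrast, which does not show that the genotypes changed alike there.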

How the data were processed

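RNA of laser-captured Brunner's glands from 18 individual mice was hybridised to Affymetrix arrays after biotin labelling by in vitro transcription, per the labels' protocols. RMA, named in the submitters' processing notes, gave the deposited log2 signals. It makes no detection calls and shrinks differences between arrays for dim genes. No array model, probe set definition or genome build is named in the sources used here. Groups came from the sample titles, all columns were mapped, and precision is limited by how many arrays each group has.

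Genes with at least 3 of 18 arrays above 4.79, the 30th percentile of all values, were tested. Limma 3.58.1 in R 4.3.3 fitted 1 mean per group to all 18 arrays, with eBayes, two-sided p-values and Benjamini-Hochberg adjustment over all tested genes. The scripts were tested on simulated data.

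Genes were to be named by size among the consistent genes, 12 in each direction, by lists and by calls with 1 array left out. As 0 rows of the gene table carry an Ensembl identifier, the 25 lists by symbol were not used, and at most 2 identifiers per direction are printed: the 2 largest positive differences, the largest negative one and the call without number 13. Taking that call for the last place, in place of the second largest negative difference or the call without number 14, was decided after the values were seen. The members and lists were chosen with earlier results of these data known. The alternatives are the filter, the arrays in the fit, each array left out, array weights, scaling, and eBayes with trend and robust settings.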

Additional observations from a re-analysis of the deposited data

Results flagged for a closer look

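The change between 6 h and 18 h differed between wild-type and knockout mice for 197 of 12775 genes in the test of the difference itself (limma adjusted p under 0.05). The wild-type changes had a median size of 1.09 and those of knockouts 0.17, values that choosing the genes by this test helped to set. Single genes were not screened for outlying samples, because no group held the 4 arrays that this needs.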

How the results depend on the processing

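The knockout count of 0 was also 0 without a filter, with a stricter filter at the 50th percentile, when the fit held no other groups, under 3 other scalings and with trend and robust eBayes. It was 0 to 1 with 1 array left out and 455 with array weights. Where it was 0, the smallest limma adjusted p ran from 0.0508 without number 15 to 0.788 when the fit held no other groups. With each array scaled to 1 interquartile range this smallest value was 0.0549. The wild-type count of 1389 was 808 to 2415 with 1 array left out, 3423 with array weights and 2114 without numbers 13 and 8, a setting chosen after the data were seen. The genotype by time count of 197 was 87 to 284 with 1 array left out, 108 when the fit held no other groups, 1512 with array weights and 316 without numbers 13 and 8. The cause was not tested. The 974 wild-type genes with the same direction in knockouts numbered 866 to 1057 over 16 alternatives, the lowest with the stricter filter, which tests fewer of them; 2 of the 16, which combine a scaling with leaving out number 13, were chosen after the data were seen. The differences of the 4 genes given by identifier kept their sign under all 14 alternatives each. ENSMUSG00000066037 passed with array weights (adjusted p = 0.0219), as did ENSMUSG00000020034 (0.00600) and ENSMUSG00000020427 (0.00119), and ENSMUSG00000059824 did not (0.0551). No paired analysis was possible because each array number occurs once in the series. No detection calls were made, so genes near the filter level of 4.79 cannot be told from absent ones here. That level is a percentile of all values, not a measured background.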
